A study of Mus musculus with 20 samples.

Results

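Long and short fibers of the same asbestos were compared by the RNA of the diaphragm of mice that had received them. The comparison rested on 8 of the 20 arrays of the series, which were the 4 arrays labeled LFA (long-fiber amosite) and the 4 labeled SFA (short-fiber amosite). Amosite is an amphibole asbestos, and both samples came from 1 South African batch, with the SFA sample shortened by ball milling. Of the LFA fibers, 100% were at least 5 µm long, 50.3% were over 15 µm, and 35.2% were over 20 µm, whereas 3.1% of the SFA fibers reached 5 µm. Female C57Bl/6 mice aged 8 weeks were allocated at random and received 25 µg of either sample in 100 µL of saline with 0.5% BSA by injection into the pleural cavity, and the diaphragm was taken after 12 weeks. The control group received the vehicle alone, and 2 further groups received 5 µg of short (NTS) or long (NTL) carbon nanotubes, each with 4 mice. No group carried a genetic change, and each array held RNA from the snap-frozen portion of 1 diaphragm. The tissue was therefore a mixture of muscle, mesothelium, and whatever cells had gathered on the pleural surface, and in such bulk samples fewer cells of a type and less RNA per cell cannot be told apart.

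The pleural cavity drains through small openings in the parietal pleura, and fibers that are too long to pass or to be engulfed by 1 macrophage are known to be retained there. A macrophage that fails to enclose a fiber is known to release chemokines, which call further monocytes and neutrophils, and interleukin 1 and interleukin 6, which act on the mesothelial layer. Lasting inflammation of this kind can bring in lymphocytes, among them plasma cells, the antibody-secreting stage of the B cell.

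Levels below are log2 signals relative to the 75th percentile of the same array, and differences are log2 values of LFA minus SFA with their standard errors. The 75th percentile was 548 to 964 intensity units in LFA and 339 to 589 in SFA, and the share of probes well above background was 56.3% to 63.0% and 58.7% to 61.6%, respectively. Correlations between arrays were 0.900 to 0.963 within LFA, 0.924 to 0.975 within SFA, and 0.896 to 0.967 between them. The skeletal muscle markers, which define the tissue, had mean levels of 5.70 to 6.94 on these 8 arrays, and the mesothelial markers 1.70 to 2.71. Liver markers stood far apart between mice of the same group, with mean levels of 1.39, 6.62, 4.31, and -2.37 in SFA 1 to 4 and 6.68, -1.75, 7.26, and -1.32 in LFA 1 to 4. LFA 3 and LFA 4 lay on a slide that held no SFA array. Counts of called genes without these arrays, and the named genes whose calls were lost without them, are given beside the overall comparison and with the lists.

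Fiber length separated the 2 asbestos groups at 429 of 36931 probes tested (1.16%), of which 380 were higher and 49 lower in LFA by at least 2-fold at an adjusted p under 0.05 (limma, Benjamini-Hochberg). An unadjusted p under 0.05 was reached by 4619 probes. Of the 429 called probes, 423 did not overlap between the groups, so a lack of overlap adds little to a call. With each gene read by its brightest probe, 200 of 18526 genes were higher (1.08%) and 15 were lower (0.081%), and the median difference over all genes was -0.095. The count of probes depended on single mice. It was 155 without LFA 2, 168 without SFA 2, 170 without LFA 4, and 228 without SFA 3, and it was between 298 and 527 without any other array. It was 320 with slide as a block, 266 without the slide that held LFA 3 and LFA 4, and 139 without the 6 arrays of the series with high liver markers. Leaving out that slide set LFA 1 and LFA 2 against the 4 SFA arrays. Leaving out those 6 arrays set LFA 2 and LFA 4 against SFA 1 and SFA 4. Of 73 named genes that were called, 15 were called under each of these settings and without each of the 20 arrays, and they were Fam162b, Calca, Ccl8, Olr1, Saa3, Clec4n, Timp1, Cd14, Trem2, Lilrb4a, C5ar1, Tbxas1, Pik3r5, and Tacr1, all higher in LFA, and 4933405E24Rik, which was lower. Of these 15, Tacr1 was not called with normexp, another background correction. A fit of only the 8 asbestos arrays called 20 of the 73, and an unequal-variance t-test after adjustment called 0. With slide as a block 23 of the 73 lost their call (adjusted p from 0.051 to 0.18), among them Ccl4, Il1r1, Pycard, Fcgr1, Fcgr4, C6, Ctss, Cyba, Cd68, Fgr, Hmox1, Slc11a1, Il10, Prl2c1, and Pla2g1b.

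Without the arrays with high liver markers, which left LFA 2 and LFA 4 against SFA 1 and SFA 4, 48 of the 73 named genes lost their call (adjusted p from 0.056 to 0.41). The differences of all 73 were 0.68 to 1.48 times those with all arrays (median 1.17). Their signs could not change, because the groups did not overlap for these genes. Those that lost their call included the chemokines Cxcl5, Cxcl3, Ccl3, and Ccl4, the cytokine and growth factor genes Il6, Il10, Il1r1, Pycard, Csf1r, and Csf2rb, the receptors Marco, Clec4d, Fcgr1, and Tlr13, and the phagocyte genes C1qa, Ctss, Cd68, Ncf1, Ncf4, Cyba, Alox5, Ptgs1, Itgb2, Fgr, Hmox1, and Slc11a1. They also included Adam8, Plaur, Mmp27, Tlx2, Cdkn2a, LOC641221, and LOC100505009 and, among the lower genes, 5730419F03Rik, Sox5, Prl2c1, Vash1, Cplx2, and Pla2g1b. Without the slide of LFA 3 and LFA 4, 40 of the 73 lost their call (adjusted p from 0.053 to 0.23), with differences 0.76 to 1.31 times those with all arrays (median 0.99). Of the genes just listed, Cxcl5, Ccl3, Marco, Clec4d, C1qa, Plaur, Mmp27, Cdkn2a, LOC100505009, and the lower genes other than Pla2g1b were called without that slide, while Ccl7, Socs3, Fcgr4, C1qc, and Lgmn were not.

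Set against the vehicle, the short fibers gave no called probe (limma, 0 of 36931, with 843 at an unadjusted p under 0.05), nor did they with slide as a block (0, with 1324). Between LFA and control, 535 genes were higher (2.89%) and 313 lower (1.69%). The 380 probes higher in LFA than in SFA had a median difference of 2.50 between LFA and SFA and of 0.00 between SFA and control, and for the 49 lower probes these medians were -1.98 and 0.07. Both comparisons share the SFA arrays, and the values are given side by side only.

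Chemokines, the secreted proteins that draw leukocytes along a gradient, were well represented among the genes higher in LFA. Of 17 CC chemokine genes tested, 7 were higher in LFA and 0 lower, with a list median of 1.62. Over all genes these shares were 1.08% and 0.081%, which stand as the measure for the count of each list below. Ccl8, which draws monocytes, was at 2.30, 1.06, 2.56, and 1.01 in SFA 1 to 4 and at 5.52, 6.69, 5.08, and 6.54 in LFA 1 to 4. The groups did not overlap, and the difference was 4.23 ± 0.51 (18.7-fold, adjusted p = 0.000395). Ccl6 was higher by 2.41 ± 0.32, and the monocyte chemokines Ccl7 and Ccl2 by 2.83 ± 0.53 and 2.39 ± 0.40. Ccl3 and Ccl4, the macrophage inflammatory proteins, were both higher by 2.54, and Ccl9 was higher by 2.15 ± 0.38. The calls of Ccl3 and Ccl7 were lost without SFA 2, LFA 2, or LFA 4, and that of Ccl4 was lost without any of these or SFA 4. The list held 4 called genes without SFA 2, without LFA 2, or without LFA 4, and 6 to 8 without any other LFA or SFA array.

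The neutrophil-attracting CXC chemokines held the strongest single member. Cxcl5 was at -2.29, -2.94, -4.43, and -3.85 in SFA and at 0.74, 0.76, 0.99, and 2.73 in LFA, a difference of 4.68 ± 0.73 (25.7-fold, adjusted p = 0.00267). Every LFA array exceeded every SFA array, with LFA 4 well above the other 3. Cxcl3 was not well above background on any SFA array and lay between -4.47 and -1.2 in LFA, and it was at least 7.14-fold higher. Cxcl2 and Cxcl1 had differences of 2.09 and 1.85 and were not called. In all, 2 of 15 CXC chemokine genes were called. This count was 0 without the arrays with high liver markers, where Cxcl5 had 4.82 (adjusted p = 0.056) and Cxcl3 an adjusted p of 0.090, and it was 1 without the slide of LFA 3 and LFA 4, where Cxcl3 had an adjusted p of 0.057.

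**Figure D1:**
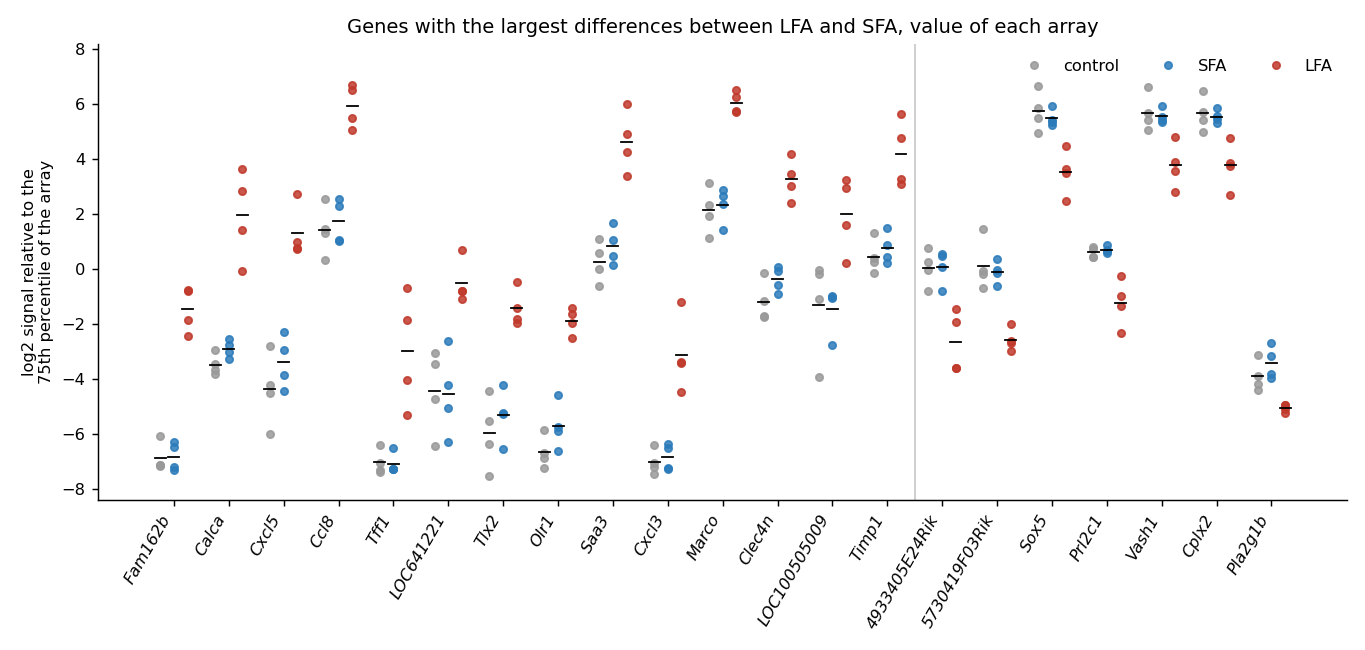
Each point is 1 array, the horizontal bars are group means over 4 arrays, and the vertical axis is the log2 signal relative to the array's 75th percentile, for the 14 genes with the largest higher differences and, right of the vertical line, 7 of the 8 with the largest lower differences between LFA and SFA. Only called genes without overlap between the groups were eligible. By that rule every red LFA point lies above every blue SFA point on the left, and below on the right.

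Receptors by which macrophages recognize particles and dying cells held the most called genes of any functional list. Of 27 scavenger and lectin receptors tested, 8 were higher in LFA and 0 lower, and 26 had a positive difference (list median 0.94). Marco, a scavenger receptor that binds unopsonized particles, was at 2.67, 1.42, 2.38, and 2.90 in SFA and at 5.75, 5.71, 6.51, and 6.28 in LFA, a difference of 3.72 ± 0.46 (13.2-fold, adjusted p = 0.000497). Olr1, a receptor of oxidized lipoprotein, lay between -6.61 and -4.60 in SFA, where 1 of 4 arrays was well above background, and between -2.53 and -1.41 in LFA (3.83 ± 0.42). Neither gene overlapped between the groups. A neighboring set of C-type lectins that sense fungal and mycobacterial glycolipids was called as well, with Clec4n at 3.65 ± 0.52, Clec4d at 3.43 ± 0.47, Clec4e at 3.13 ± 0.45, and the beta-glucan receptor Clec7a at 2.13. Msr1, a second scavenger receptor of macrophages, was higher by 2.34. Cd36, which takes up fatty acids in muscle and fat as well as in macrophages, was the sole member with a negative difference (-1.16, not called). The list held 5 called genes without SFA 2, LFA 2, or LFA 4 and with slide as a block, and 3 without the arrays with high liver markers, where Marco had 3.21 (adjusted p = 0.072) and Clec4d 3.23 (adjusted p = 0.090).

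Of 23 Fc receptors and adaptors of the ITAM type, which couple surface receptors to Syk kinase, 7 were higher in LFA and 0 lower (list median 1.16). Trem2, a lipid-sensing receptor of macrophages, was at 0.67, -0.08, -0.28, and 0.37 in SFA and at 2.95, 3.96, 2.60, and 4.65 in LFA (3.37 ± 0.39, 10.3-fold, adjusted p = 0.000377). Its signaling adaptor Tyrobp was higher by 1.74 ± 0.36, and the inhibitory receptor Lilrb4a by 2.49 ± 0.39. The receptors of immunoglobulin G, Fcgr1 and Fcgr4, were higher by 2.42 ± 0.52 and 2.33 ± 0.53, and each of these calls was lost in 5 fits that left out 1 array (adjusted p up to 0.12 and 0.15). The list held 2 called genes without SFA 2, LFA 2, or LFA 4, 4 without SFA 4, and 3 with slide as a block.

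Of 20 macrophage markers, 12 were higher in LFA and 0 lower, the list median was 1.70, and 19 differences were positive. The mean level of the list was 2.24, 1.49, 2.11, and 2.0 in SFA and 3.27, 4.05, 3.08, and 4.10 in LFA, so that the groups did not overlap. This gave an exact two-sided permutation p of 0.0286, which is the smallest that 4 against 4 arrays allow, and 0.129 after adjustment over 18 array measures. The mast cell and eosinophil markers and the lung markers had the same p and adjusted p, with smaller differences in mean level of 0.73 and 0.39. Ms4a4a and Ms4a6d, membrane proteins of tissue macrophages, were higher by 2.81 ± 0.54 and 2.62 ± 0.34, Cd14, the coreceptor of bacterial lipopolysaccharide, by 2.20 ± 0.32, and the lysosomal marker Cd68 by 1.61 ± 0.34, with a call of Cd68 that was lost in 6 fits that left out 1 array (adjusted p up to 0.11). The part of the macrophage markers in the other lists was not tested. Among the T and NK cell, dendritic cell, fibroblast, and mesothelial markers, 0 of 25, 0 of 12, 0 of 18, and 0 of 19 were called. The neutrophil list had a median of 1.59 with 15 of 18 differences positive, and its mean level differed by 1.48 (exact permutation p = 0.0857). In it 1 gene was called, the formyl peptide receptor Fpr1 (3.02 ± 0.60), while the defining granule proteins S100a8 and S100a9 had differences of 1.57 and 1.48. The neutrophil list held 0 called genes without SFA 3 or LFA 4 and with slide as a block, and without the arrays with high liver markers it held 2 and its median was 0.36. The macrophage list held 4 called genes without SFA 2, LFA 2, or LFA 4, 3 without the arrays with high liver markers, where its median was 1.93, and 6 with slide as a block.

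**Figure D2:**
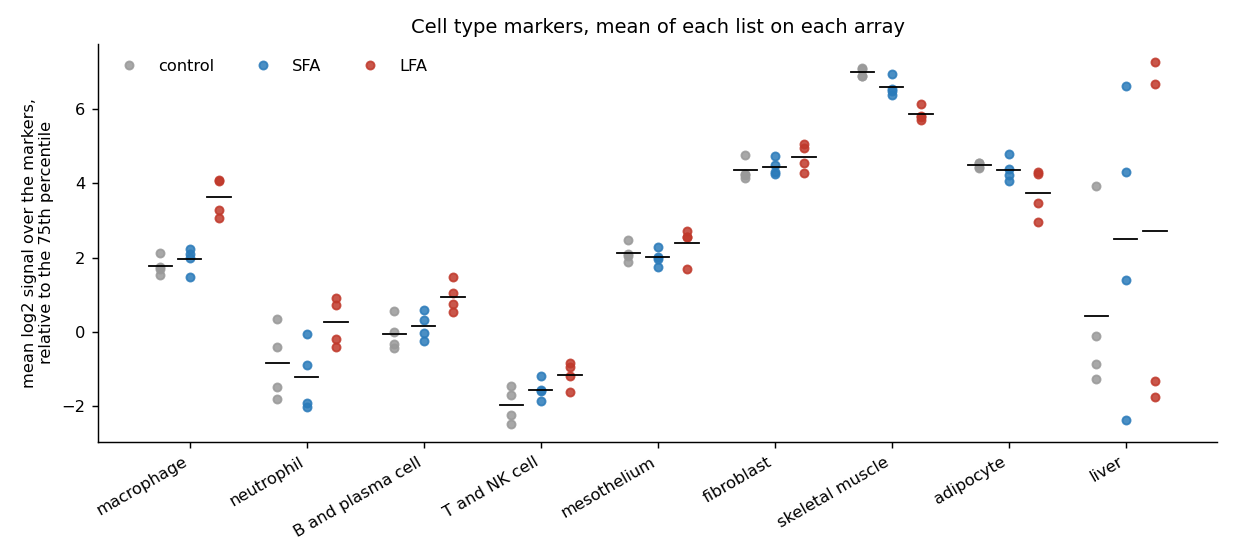
Each point is the mean log2 level of a list of cell type markers on 1 array of the control, SFA, or LFA group, relative to the array's 75th percentile, with bars at the group means. Macrophage markers were higher on all 4 LFA arrays and skeletal muscle markers lower. Liver markers spread from -2.37 to 7.26 over the SFA and LFA arrays and from -1.28 to 3.93 over the control arrays.

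Effector functions of phagocytes followed at smaller differences. Of 12 genes of the phagocyte NADPH oxidase and its relatives, 4 were higher in LFA, among them the cytosolic subunits Ncf1 (2.02 ± 0.41) and Ncf4 (1.47 ± 0.31) and the membrane subunit Cyba (1.17 ± 0.28). The catalytic subunit Cybb had a difference of 1.11, and Nos2 one of -0.87, and neither was called. The list held 0 called genes without SFA 2, LFA 2, or LFA 4, 1 without SFA 3, and 2 without SFA 4. Of 21 genes of prostaglandin and leukotriene synthesis, 6 were higher. Tbxas1, thromboxane synthase, was at 0.41, 0.19, 0.42, and 0.78 in SFA and at 1.89, 2.69, 1.5, and 2.43 in LFA (1.68 ± 0.25, adjusted p = 0.00202). The inducible cyclooxygenase Ptgs2 was higher by 2.29 ± 0.46, the constitutive Ptgs1 by 1.27 ± 0.24, and the 5-lipoxygenase Alox5 by 1.48 ± 0.26, and the leukotriene genes Ltc4s and Alox5ap were both higher by 1.2. The list held 2 to 3 called genes without SFA 2, LFA 2, or LFA 4 and without the slide of LFA 3 and LFA 4. The call of Ptgs2 was lost without SFA 2, SFA 4, LFA 2, or LFA 4, and that of Ptgs1 without LFA 4.

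Complement, the cascade of plasma proteins that tags particles for uptake, held 5 higher genes of 29, and 27 differences were positive. C5ar1, the receptor of the anaphylatoxin C5a, was at -2.24, -2.77, -2.88, and -2.55 in SFA and at -0.71, 0.17, -0.88, and 0.49 in LFA (2.38 ± 0.32, 5.20-fold, adjusted p = 0.000935). C1qc and C1qa, chains of the recognition subunit, were higher by 1.47 ± 0.26 and 1.79 ± 0.38, C6, part of the lytic complex, by 2.24 ± 0.52, and properdin (Cfp), which stabilizes the alternative pathway, by 1.02. The call of C1qa was lost without SFA 1, SFA 2, LFA 2, or LFA 4, and that of C6 in 13 fits that left out 1 array (adjusted p up to 0.18). The list held 2 called genes without SFA 1, SFA 2, LFA 2, or LFA 4 and 3 without SFA 3 or with slide as a block. Of 34 lysosomal genes 4 were higher, led by the cysteine proteases Ctss (1.67 ± 0.36) and Lgmn (1.41 ± 0.26). This count was 1 without SFA 2, SFA 3, SFA 4, LFA 2, or LFA 4, 2 without LFA 1, and 1 with slide as a block, and the call of Ctss was lost in 5 fits that left out 1 array (adjusted p up to 0.13).

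The interleukin lists held 2 called genes each, where 1.08% of all genes were higher in LFA. Of 18 genes of the interleukin 6 family and STAT3 pathway, 2 were higher, and these were the ligand and a target. Il6 lay at -3.51, -5.80, -4.40, and -4.22 in SFA and at -2.49, -1.82, -2.31, and -1.21 in LFA (2.53 ± 0.50, 5.77-fold, adjusted p = 0.0156), and its call was lost without SFA 2, LFA 2, or LFA 4. The feedback inhibitor Socs3 was higher by 1.72 ± 0.31, and Stat3 itself had a difference of 0.52 ± 0.25 (adjusted p = 0.402). Of 17 genes of the interleukin 1 family and the inflammasome, 2 were higher, the receptor Il1r1 (1.79 ± 0.42) and the adaptor Pycard (1.56 ± 0.31). Il1b had a larger difference of 2.94 ± 0.72 that missed the threshold (adjusted p = 0.054). The call of Pycard was lost without SFA 2, SFA 3, LFA 2, or LFA 4, and that of Il1r1 in 16 fits that left out 1 array (adjusted p up to 0.18). All 29 interferon-stimulated genes had a positive difference (median 0.74) and 0 were called, with Mx1 at 2.06 (adjusted p = 0.148). Without LFA 1 the interferon list held 2 called genes.

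Of 21 acute phase and antimicrobial genes, 1 was higher in LFA. Saa3, an acute phase protein made by macrophages and fat cells, was at 0.15, 1.05, 0.49, and 1.69 in SFA and at 4.27, 6.01, 3.40, and 4.90 in LFA (3.80 ± 0.57, 14-fold, adjusted p = 0.00200). It did not overlap between the groups, and it was called without the arrays with high liver markers too (adjusted p = 0.013). Saa1, which liver makes in quantity, had a difference of 2.90 and was not called, and 0 of 18 liver markers were called.

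Growth factor and kinase signaling lists held at most 2 called genes each, where 1.08% of all genes were higher in LFA. Of 18 colony stimulating factor and TNF family genes 2 were higher, Csf1r (1.29 ± 0.23), the macrophage growth factor receptor, and Csf2rb (1.61 ± 0.29), the shared chain of the GM-CSF receptor. Other Csf1r probes had 1.53 and -0.02 and were not called, and with its probes averaged Csf1r had 0.93 (adjusted p = 0.305). Of 28 PI3K, AKT, Src, and ERK genes 2 were higher, Pik3r5 (1.65 ± 0.29), a regulatory subunit of the leukocyte PI3K, and the Src family kinase Fgr (1.68 ± 0.39), whose call was lost in 10 fits that left out 1 array (adjusted p up to 0.18). Pik3cg, the catalytic partner of Pik3r5, had a difference of 1.21 ± 0.43 (adjusted p = 0.253), and Src one of -0.39. Of 27 growth factors and receptor kinases 0 were called. Of 18 Toll-like receptor genes Cd14 and Tlr13 (1.73 ± 0.32) were higher, and of 19 leukocyte integrins and adhesion molecules 4 were, led by Itgb2 (1.67 ± 0.33), the common beta chain. The integrin list held 0 called genes without SFA 2, LFA 2, or LFA 4 and 1 without SFA 1, SFA 3, or SFA 4, and the call of Tlr13 was lost without LFA 2 or LFA 4.

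Most oxidant and iron genes were not called, where 1.08% of all genes were higher in LFA. Of 22 NRF2 target and antioxidant genes 1 was higher, Hmox1 (1.18 ± 0.26), which breaks down heme, and of 22 iron genes Hmox1 and the phagosomal metal transporter Slc11a1 (1.56 ± 0.35) were. Their calls were lost in 6 and 8 fits that left out 1 array (adjusted p up to 0.14 and 0.15). A second Hmox1 probe had 0.22 (adjusted p = 0.929), and with its probes averaged Hmox1 had 0.70 and was not called (adjusted p = 0.229). Of 18 genes of alternatively activated macrophages 1 was called, Il10 (1.47 ± 0.35, with a call lost in 17 fits and an adjusted p up to 0.18), and Arg1 had 3.62 ± 1.56 (adjusted p = 0.345) with wide spread in SFA. With normexp Il10 had 0.07 and was not called. The lists of osteoclast and giant cell genes, lipid-handling macrophage genes, and MHC class II presentation held 2 of 19, 3 of 22, and 2 of 16 higher genes. Those of DNA replication, lymphatic vessels, the circadian clock, and immediate early transcription factors held 0 of 27, 0 of 8, 0 of 17, and 0 of 18. Of 14 mast cell and eosinophil markers 1 was higher, Hdc (2.08 ± 0.26), the enzyme that makes histamine, and of lung and erythroid markers 0 of 7 and 0 of 10 were called. Without the arrays with high liver markers 0 mast cell and eosinophil markers were called.

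**Figure D3:**
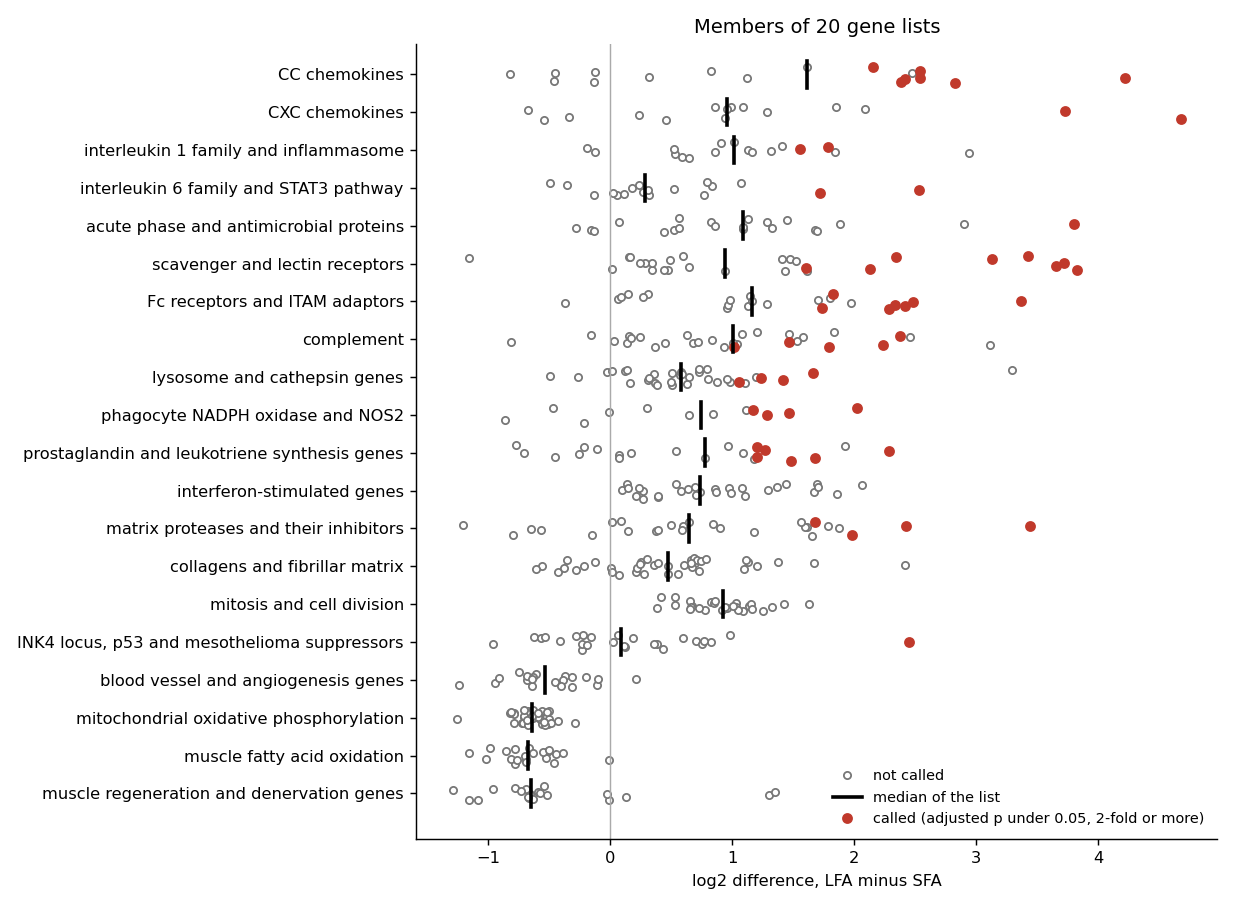
Each point is 1 gene at its log2 difference of LFA minus SFA, in 20 lists of related genes, with called genes filled and a black bar at the list median. Called genes gather at the right in the chemokine, receptor, complement, and eicosanoid lists, while the muscle metabolism lists lie left of 0 with no call.

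Immunoglobulin genes were the largest single class among the probes higher in LFA, and the class was picked out after its values were seen. The files described 137 tested probes as immunoglobulin, and 80 of them were higher in LFA and 0 lower (58.4%, against 1.16% of all probes). Their median level was -1.83, -2.89, -2.45, and -1.38 in SFA 1 to 4 and 1.18, 2.04, 0.641, and 1.60 in LFA 1 to 4. Every LFA array lay above every SFA array, the median difference was 3.29, and 133 of the 137 differences were positive. The median difference between SFA and control was -0.15. Variable segments of a locus are close in sequence and a probe can read several of them, so these probes are not independent of one another.

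Probes of both heavy and light chains were called. The heavy constant mu probe (chr12:114659630-114659689, mm9, the build of all positions given), which reads IgM, was at 4.26, 2.94, 3.77, and 5.00 in SFA and at 7.36, 7.84, 5.95, and 7.29 in LFA (3.12 ± 0.58, adjusted p = 0.0102). A heavy constant gamma 1 probe (chr12:114568594-114568653), which reads IgG1, rose from between -3.72 and -1.58 to between 1.60 and 3.90 (5.43 ± 0.94, adjusted p = 0.00698), and a second probe of that gene had a difference of 5.94 ± 1.85 that was not called. The gamma 2C probe had a difference of -0.69 and was not called. A predicted heavy chain gene (LOC641221) and a predicted mu chain-like gene (LOC100505009), both among the 14 genes with the largest differences, had 4.05 ± 0.83 and 3.47 ± 0.79, with calls that were lost in 6 and 10 fits that left out 1 array (adjusted p up to 0.090 and 0.17). Of 2 kappa constant probes 1 was called (1.97 ± 0.42), and the other had a difference of 2.33 that was not called. Both lambda variable probes were called (3.93 and 3.75), and 0 of 3 lambda constant probes were (1.87 to 1.89). Of 85 kappa variable probes 52 were called, and of 30 heavy variable probes 15.

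Probes were also counted by position, in windows that the described probes themselves set. Between the outermost described heavy chain probes (chr12:114496985-117238485), 56 of 118 tested probes were higher in LFA. Of the 80 of these that the files do not describe as immunoglobulin 36 were higher, among them the probe with the largest difference of all (6.15). Between the outermost kappa probes (chr6:67505984-70676751), 61 of 99 were higher, and of the 12 not so described 7 were. Together with the described probes elsewhere, these came to 123 of 229 probes, which leaves 257 higher and 49 lower probes among the other 36702. Genes of plasma cells that lie outside these loci were called as well. Derl3 was at 0.14, -1.02, -1.12, and -0.42 in SFA and at 1.78, 2.72, 2.10, and 2.12 in LFA (2.78 ± 0.33, adjusted p = 0.000395), and it serves the secretory pathway of antibody-making cells. The joining chain Jchain, which links IgM and IgA subunits, was higher by 2.75 ± 0.44, the endoplasmic reticulum chaperone Mzb1 by 2.14 ± 0.44, and the transcription factor Irf4 by 1.16 ± 0.27. These were 4 of 20 B and plasma cell markers. The plasma cell genes Tnfrsf17 (2.32), Sdc1 (1.5), and Xbp1 (0.94) and the B cell genes Cd79a (0.13), Ms4a1 (-0.14), and Pax5 (-0.54) were not called. The count of called B and plasma cell markers was 2 without SFA 2, SFA 3, LFA 2, or LFA 4. The count of immunoglobulin probes was 34 without LFA 2, 37 without SFA 2, 40 without LFA 4, 47 without SFA 3, 51 without the slide of LFA 3 and LFA 4, and 10 without the arrays with high liver markers, while their median difference stayed between 3.0 and 3.70 in every one of these.

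**Figure D4:**
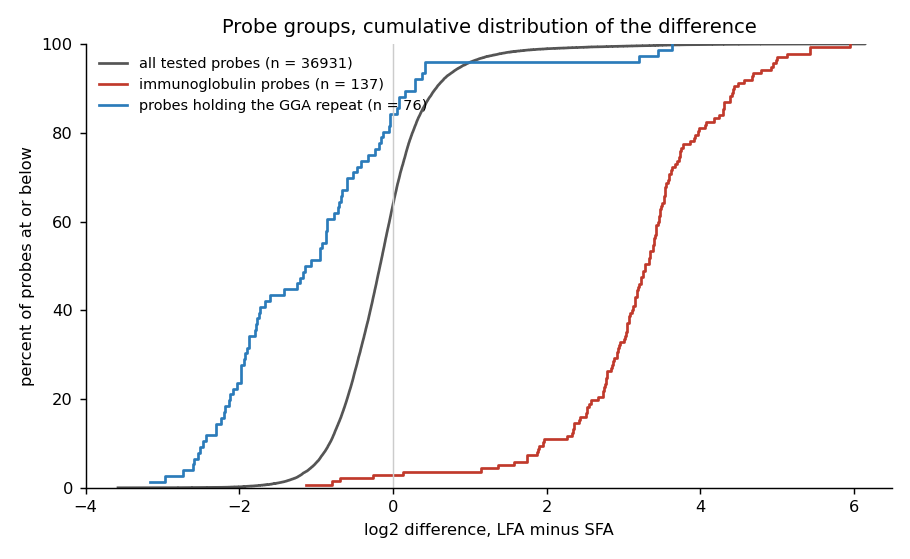
Cumulative share of probes (percent, vertical axis) at or below each log2 difference of LFA minus SFA (horizontal axis), for all 36931 tested probes, the 137 immunoglobulin probes, and the 76 probes with a run of the GGA repeat. The immunoglobulin curve is shifted to a median of 3.29 and the repeat curve to -1.11, against -0.168 for all probes.

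The tumor suppressor locus that the study followed was measured as well. Cdkn2a, which encodes p16 and p19, was at -1.40, -1.90, -1.55, and -1.26 in SFA and at 0.12, 1.39, 1.43, and 0.74 in LFA (2.45 ± 0.45, 5.46-fold, adjusted p = 0.00942). The probe lay at chr4:88920405-88920464, and a second Cdkn2a probe was called in the same direction, with 0 SFA and 4 LFA arrays well above background. The probes do not separate the transcripts of p16 and p19 here. The call of the first probe was kept without any single array and was lost without the arrays with high liver markers, where the difference was 2.40 (adjusted p = 0.11). The other mesothelioma suppressors Nf2 (-0.22 ± 0.33) and Bap1 (-0.41 ± 0.20) and Trp53 (0.02 ± 1.07) were not called, and Cdkn2a was the single called gene of 26 in its list. Markers of mesothelium and of division had positive differences that did not pass the test, with Msln at 0.41 ± 0.34, Wt1 at 1.22 ± 0.40, and Mki67 at 1.42 ± 0.57. All 28 mitosis genes had positive differences (median 0.93), and 0 were called. Of the 28, 10 were higher in LFA without overlap between the groups, against 3.94% of all genes.

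Among matrix genes, calls were found for proteases and their inhibitors and not for structural proteins. Timp1, an inhibitor of matrix metalloproteases, was at 1.5, 0.21, 0.43, and 0.89 in SFA and at 3.26, 5.63, 3.10, and 4.79 in LFA (3.44 ± 0.55, 10.9-fold, adjusted p = 0.00342). The groups did not overlap. Plaur, the urokinase receptor, was higher by 1.68 ± 0.26, the membrane protease Adam8 by 1.98 ± 0.37, and Mmp27 at least 3.93-fold. The call of Adam8 was lost without SFA 2 or LFA 4. These were 4 of 27 genes. Of 39 collagens and other fibrillar matrix genes 0 were called (median 0.47), with Col1a1 at 0.69 and Cthrc1 at 2.42 (adjusted p = 0.130), and the TGF-beta list had 0 of 21. Without LFA 3 the matrix list held 1 called gene.

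Of 16 calcitonin family and neuropeptide genes 2 were higher in LFA, Calca and Tacr1, 10 differences were positive, and the list median was 0.46. Calca, which encodes calcitonin and the neuropeptide CGRP, was at -2.54, -3.02, -3.29, and -2.76 in SFA and at 1.41, 3.65, -0.08, and 2.83 in LFA (4.86 ± 0.63, 29.0-fold, adjusted p = 0.000652). A second Calca probe, on another transcript, had a difference of 2.08 ± 0.51 that missed the threshold (adjusted p = 0.059). Tacr1, the receptor of substance P, was not well above background on any SFA array and was so on 3 LFA arrays, and it was at least 4.27-fold higher. Other genes among the largest differences belonged to none of the lists. Fam162b (chr10:51305277-51305336) lay between -7.34 and -6.30 in SFA, with 0 arrays well above background, and at -1.86, -0.80, -2.43, and -0.75 in LFA, and it was at least 22.7-fold higher (adjusted p = 5.22e-06). Tlx2, a homeobox gene of enteric neurons, lay between -6.55 and -4.21 in SFA, where 1 of 4 arrays was well above background, and between -1.96 and -0.47 in LFA, where all 4 were (3.91 ± 0.68). Its call was lost without the arrays with high liver markers (adjusted p = 0.11) and without the slide of LFA 3 and LFA 4 (adjusted p = 0.078). Tff1, a secreted trefoil peptide of the stomach, was at least 7.93-fold higher with 3 of 4 LFA arrays well above background, its call was lost without LFA 2 or LFA 4, and the files place its probe on chromosome 5 (chr5:143285582-143285641). Dim genes depended on the background correction. With normexp the differences of Fam162b, Tff1, Cxcl3, Tacr1, and Mmp27 were 1.87, 1.09, 0.68, 0.39, and 0.15, and those of the last 4 were no longer called. Tlx2 and Olr1 had 1.66 and 1.39 with normexp and were called, while Il6 (0.98), Ptgs2 (1.04), Ccl3 (1.26), C6 (1.36), Il10 (0.07), and Pla2g1b (-0.87) were not.

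Skeletal muscle genes had lower values in LFA without a single call. All 28 muscle markers had a negative difference (median -0.67), and 14 of them did not overlap between the groups, against 5.48% of all genes that did not overlap and were lower in LFA and 3.94% that did not overlap and were higher. The mean level of the list was 6.37, 6.48, 6.53, and 6.94 in SFA and 5.77, 5.70, 5.82, and 6.14 in LFA. The exact two-sided permutation p was 0.0286, the smallest possible here, and 0.129 after adjustment. Signals are relative to each array's own percentile, and the amount of muscle RNA per diaphragm was not measured. The calcium-binding protein Pvalb of fast fibers had a difference of -1.24 ± 0.44 (adjusted p = 0.247). All 38 genes of oxidative phosphorylation (median -0.64) and all 22 of muscle fatty acid oxidation (median -0.68) had negative differences, with 10 and 5 that did not overlap. Of 20 blood vessel genes 19 were negative (median -0.53), and of 16 adipocyte markers 15 (median -0.57). The 20 genes of muscle regeneration and the 15 of atrophy had medians of -0.65 and -0.27. No gene of any of these lists was called in the fit to all arrays. Without LFA 3 the fatty acid oxidation list held 1 lower gene and the regeneration list 1 higher gene, and without LFA 1 the latter held 1 higher gene. The medians of all these lists kept their sign with quantile normalization, with slide as a block, and without any LFA or SFA array. Without the arrays with high liver markers and without the slide of LFA 3 and LFA 4, the median was -0.71 and -0.80 for muscle markers, -0.81 and -0.99 for oxidative phosphorylation, and -1.03 and -1.0 for fatty acid oxidation.

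Among the probes lower in LFA, 1 sequence recurred. Of the 49, 21 (42.9%) held GGAGGAGGA, which occurs in 76 of all 36931 tested probes (0.206%) and in 0 of the 380 higher ones. The letters were searched on the strand of the probe as printed, after the recurrence had been seen, and overlapping copies counted once per probe. Windows of 30 bases from the 60-base probes of named genes show it, with 1 copy of the searched letters in capitals.

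4933405E24Rik (chr11:53991291-53991350): cgaGGAGGAGGAggagtgatatgtgattaa
5730419F03Rik (chr1:78591616-78591675): tactgaagaaGGAGGAGGAggagttaattt
Sox5 (chr6:143776945-143776971): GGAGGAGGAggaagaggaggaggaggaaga
Vash1 (chr6:16808968-16809027): gaGGAGGAGGAggaggaggaggaggaggag

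The first 2 probes carry a short run inside other sequence, and the Sox5 and Vash1 probes are repeat through the window shown. Positions are those the files give, and for Vash1 they differ from those of its other probes. The probe that represents Cplx2 (chr13:108816800-108816859) likewise lies away from the other Cplx2 probes. Over the 76 probes the median difference was -1.11, against -0.167 for the probes without the letters, and 64 were negative. The reverse complement TCCTCCTCC occurred in 41 tested probes (0.111%), of which 4 were higher and 0 lower.

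Of the 8 named lower genes, 5 were read by such probes. They were 4933405E24Rik (-2.73 ± 0.48), 5730419F03Rik (-2.48 ± 0.43), Sox5 (-1.97 ± 0.43), Vash1 (-1.80 ± 0.41), and Cplx2 (-1.77 ± 0.41). Vash1 was at 5.42, 5.55, 5.94, and 5.37 in SFA and at 3.91, 2.80, 4.81, and 3.58 in LFA, and Cplx2 had nearly the same values on every array. A Vash1 probe without the repeat (chr12:88032981-88033040) had a difference of -0.64 (adjusted p = 0.654), and a Cplx2 probe without it (chr13:54485200-54485259) one of -0.39 (adjusted p = 0.560). A further Cplx2 probe without these letters (chr13:54481348-54481407) had -3.27 and was called. Its position overlaps that of a Cplx2 probe with the repeat (chr13:54481316-54481375). The calls of Sox5, Vash1, and Cplx2 were lost in 7, 12, and 14 fits that left out 1 array, with adjusted p up to 0.18. Without the 76 probes, 400 probes (373 higher, 27 lower) and 204 genes (195 higher, 9 lower) were called. What the repeat probes bound was not tested.

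Prl2c1 and Pla2g1b were lower without such a repeat. Prl2c1, of the prolactin family, was at 0.67, 0.86, 0.57, and 0.69 in SFA and at -1.35, -1.0, -2.33, and -0.27 in LFA (-1.93 ± 0.38, adjusted p = 0.0159), and its call was lost without SFA 2. Pla2g1b, the pancreatic phospholipase, was lower by a log2 difference of -1.64 ± 0.38, with a call that was lost in 14 fits (adjusted p up to 0.15).

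The nanotube groups gave a second contrast of length on other arrays. Between NTL and NTS, 1161 genes were higher (6.27%) and 471 lower (2.54%). These calls depended strongly on single arrays and on the slide. The 2809 probes called (1807 higher, 1002 lower) became 756 (660 higher, 96 lower) with slide as a block and 5504 without NTS 4, where more probes were lower (3379) than higher (2125), and they were 1865, 1836, 1743, and 1789 without NTS 2, NTS 3, NTL 2, or NTL 4. The overlaps given next were counted with all arrays and without the block alone. Of the 380 probes higher in LFA than in SFA, 373 were also called higher in NTL, and of the 49 lower probes 32 were also called lower. This was 94.4% of the asbestos calls and 14.4% of the nanotube calls, and 0 of the 429 had the opposite sign. The difference of the 2 length effects was called at 0 of 36931 probes (limma, 1274 at an unadjusted p under 0.05), and the smallest adjusted p was 0.9999. Of the 429 probes, which were chosen on LFA and SFA arrays that also enter this difference, 53 were under 0.05 unadjusted. Its median standard error was 0.57, against 0.40 in each length contrast, so a lack of calls does not show equal effects. Doses and materials differed between the contrasts.

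Of the 73 named genes called between LFA and SFA, 61 had the larger absolute difference in the nanotube contrast. Calca had 6.93 there against 4.86, and Cxcl5 had 6.31 against 4.68. Mmp27, a metalloprotease, was the exception furthest from equality. It lay between -6.95 and -5.85 in SFA, where no array was well above background, and between -4.36 and -3.56 in LFA, and it lay between -5.13 and -3.60 in NTS and between -3.98 and -3.76 in NTL, a nanotube difference of 0.45. The difference of the effects had an unadjusted p of 0.000901 and an adjusted p of 0.9999. Among lists, 19 of 39 matrix genes and 23 of 28 mitosis genes were called higher in NTL than in NTS, where the asbestos contrast called 0 of each. No member of either list differed between the 2 contrasts by the test of the difference. Between LFA and control, 6 of these matrix genes and 16 of these mitosis genes were called higher, against 2.89% of all genes. Between SFA and control 0 of either list were called, and 26 of the 28 mitosis genes had positive differences (median 0.56).

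**Figure D5:**
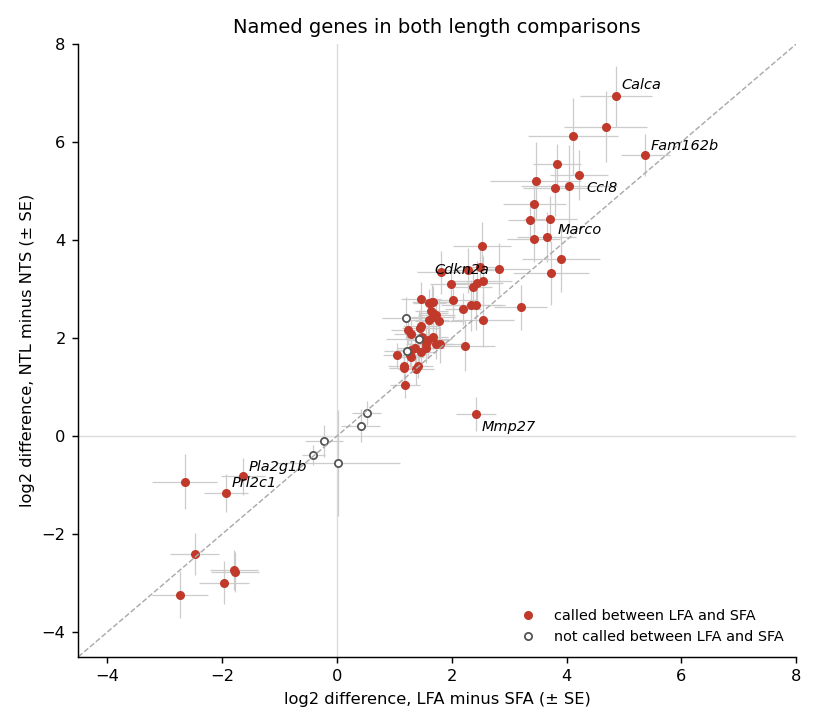
The log2 difference of LFA minus SFA (horizontal axis) and of NTL minus NTS (vertical axis) for the 81 named genes, with standard errors as grey bars and the dashed line at equal values. Genes called between LFA and SFA are filled, and Mmp27 lies furthest below the line among those that were higher in LFA.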

How the data were processed

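RNA from 20 diaphragms was labeled with Cy3 and hybridized by the authors to Agilent 60K mouse arrays, 1 array per mouse, and the deposited scanner output (Feature Extraction 10.7.3.1) gave a background-subtracted intensity per spot. The authors also deposited normalized log2 values with 1 value per group, which has no replicates and served only as an alternative for single genes. Probe positions are those of the files (mm9, NCBI37), and 27235 of 55681 probes matched an accession in a RefSeq gene list (GRCm38.p6), which served for names only. Exon and untranslated region annotation of this build was not used here.

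Control spots and outlier spots (92 to 204 per array) were left out, and the spots of a probe were averaged. The log2 intensity was set relative to the array's 75th percentile. A probe was tested where the scanner software marked it as well above background on 4 or more of the 20 arrays. A model with a mean per group was fitted to all 20 arrays with limma 3.58.1 (R 4.3.3, data.table version 1.17.8), in which all groups share 1 estimate of the spread, and a probe was called at 2-fold or more and a Benjamini-Hochberg adjusted p under 0.05 over all probes tested. Python 3.11.15 (numpy 2.4.6, pandas 2.3.3, scipy 1.17.1, matplotlib 3.10.9) served to read the files, for the exact permutation tests over arrays, and for the figures. The steps were tested on simulated normal values with the means and spreads of the real probes. Of probes shifted in LFA by a log2 value of 2 or -2, 50% and 68% were called between LFA and SFA. For shifts of 4 and -4 these shares were 88% and 98%, and 5% of the calls were false. A gene that was not called can therefore still differ. The number of arrays limits the precision.

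Each gene was represented by its brightest tested probe. Genes were named by a rule: the 14 higher and 8 lower called genes with the largest differences and groups that did not overlap, up to 4 called genes of each of 39 gene lists, and 11 genes that the study names. Markers were held in 13 further lists. Members, lists, and rule were chosen with earlier results of these data known. Other list members given with values, the immunoglobulin class, and the repeat probes fall outside this rule and were chosen after their values were seen. A group with no array well above background has only a bound, and its fold is that of the brighter mean over the dim group's mean of, per array, the higher of the lowest signal well above background and the probe's own.

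Alternatives were quantile normalization, normexp background correction (offset 50), testing every probe or those marked on all 20 arrays, 1 average value per gene, a block for slide or for replicate number, a fit of only the 8 asbestos arrays, the methods' t-test, and leaving out each array. Leaving out the arrays with high liver markers (mean above 4), the slide without SFA arrays, and the repeat probes was chosen after seeing the data. Array slides came from the scanner files. Equal replicate numbers did not mark paired mice. Some named genes are not reported here.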

Additional observations from a re-analysis of the deposited data

Results flagged for a closer look

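In groups of 4 arrays, 11 of 192 groups looked at had 1 array set apart from the other 3 by more than the limit of Dixon's test of the gap over the range, and chance alone would set apart about 1 in 20. SFA 2 was the lowest of its group for LOC100505009, a predicted Ig mu-like gene (-2.76), for Socs3 (0.980), for Laptm5 (1.19), for Ch25h (-3.17), for Ifi30 (0.942), and for Selplg (0.424), and the highest for Tff1 (-6.52) and Tacr1 (-6.50), which were not well above background on any SFA array. SFA 2 also had the lowest 75th percentile of the 8 asbestos arrays (339) and a mean liver marker level of 6.62. LFA 4 was the highest of its group for Cxcl5 (2.73, against 0.736 to 0.990 for the other 3) and Gusb (3.59), and LFA 2 had the lowest mean of the mesothelial markers (1.70, against 2.55 to 2.71). The part of these arrays in the calls is given as counts without each of them.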

How the results depend on the processing

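The count of probes called between LFA and SFA (429) was 468 with quantile normalization, 391 with normexp, 331 with no filter, and 352 with a filter on all arrays (25021 probes). It was 269 with probes averaged per gene, 320 with slide as a block, 171 with only the 8 asbestos arrays in the fit, and 0 by the methods' t-test after adjustment, which without adjustment passed 1703 probes at 2-fold (908 higher, 795 lower). It was 155 to 527 without single arrays, 139 without the arrays with high liver markers, and 266 without the slide that held no SFA array. The count of genes (215) was 133 with slide as a block and 76 to 275 without single arrays (88 without SFA 2, 117 without SFA 3, 122 without SFA 4, 82 without LFA 2, 76 without LFA 4), and 93 and 111 in the last 2 settings. The probes called between NTL and NTS (2809) numbered 756 with slide as a block and 1743 to 5504 without single arrays (5504 without NTS 4, of which 3379 were lower), and those between LFA and control (1455) numbered 899 with slide as a block. The difference of length effects stayed at 0 with slide as a block and without each single array, and it was not counted in the other settings. Replicate numbers did not pair the mice (correlations of -0.45, -0.06, 0.33, and 0.34 for equal numbers), and the replicate block gave 329 probes and 153 genes. A count under the authors' table could not be run, since it holds 1 value per group. The median difference over all probes was -0.168, and -0.062 with quantile normalization and -0.255 with normexp. Of the 73 named genes called, 30 were called without every single array, 50 with slide as a block, 25 without the arrays with high liver markers, 33 without the slide that held no SFA array, and 15 in all of these. With only the 8 asbestos arrays in the fit 20 of the 73 were called, and by the methods' t-test after adjustment 0. All 73 had the same sign within each of the 2 slides that held both groups and in the authors' table. The within-slide sign could not differ, since the groups did not overlap for these genes, and the authors' values summarize the same arrays. Without the arrays with high liver markers the CC chemokine, CXC chemokine, Fc receptor, complement, eicosanoid, NADPH oxidase, integrin, lysosome, and matrix protease lists held 4, 0, 4, 3, 2, 0, 1, 1, and 1 called genes, and the growth factor and TNF, iron, NRF2, and MHC class II lists 0 each. Without the slide that held no SFA array the macrophage, CC chemokine, Fc receptor, and eicosanoid lists held 4, 4, 3, and 2, and the interleukin 1, interleukin 6, integrin, lysosome, NADPH oxidase, growth factor and TNF, iron, NRF2, and MHC class II lists 0 each. The cause of these changes was not tested, beyond the smaller number of arrays in a fit.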
